A study of Saccharomyces cerevisiae with 18 samples.

Results

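The response of budding yeast to m-nitrophenol was set against its response to p-nitrophenol, gene by gene, over 6 arrays (12 scans) of the 9 arrays (18 scans) of the series. The arrays were chosen by their titles alone, 3 for each isomer, and their measured values played no part in the choice. Cells of Saccharomyces cerevisiae strain S288C grew with shaking at 25 °C in YPD, which is rich in glucose. At an optical density of 1, while growing exponentially, they received m-nitrophenol at 5 mM or p-nitrophenol at 1.5 mM for 2 h. The third isomer, o-nitrophenol at 3 mM for 2 h, enters here only through the estimate of spread. On every array polyA RNA of treated cells carried the dye Cy5. RNA of the same strain at the same optical density, read from the labels as taken before treatment, carried Cy3. The labels describe this Cy3 sample in different words for the isomers (the m- and o-nitrophenol labels add the 2 h) and do not say whether arrays shared it. Every array has a scan at high and another at low laser power, and the log2 ratios of the pair were averaged. A scan is not a replicate, so n is 3 arrays per isomer, taken here as independent biological samples.

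A positive log2 ratio is taken here to mean more RNA in treated cells. The dyes named in the labels make this direction likely, but it is not stated with the values. A difference is the m-nitrophenol mean minus the p-nitrophenol mean on the log2 scale, and a positive one means higher in m-nitrophenol. The doses differed, so isomer and dose cannot be told apart in any difference below, and no comparison at a matched dose can be made. The labels name no separate array of untreated cells at 2 h and no swapped dyes. Whether the Cy3 sample was the same for both isomers cannot be told from its labels. If it differed, that would enter every difference below and could not be told apart from the isomer. Scanner intensities were not analysed here, so no level above background can be given.

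Nitrophenols are phenols with a nitro group, which sits meta to the hydroxyl group in the m isomer and para to it in the p isomer. In yeast, foreign organic compounds are known to raise membrane pumps of the multidrug resistance network, while stress of many kinds raises a common set of protective genes and lowers the genes that build ribosomes. Cells starved of amino acids raise the genes of amino acid synthesis through the activator Gcn4. The synthesis of uridine nucleotides passes through dihydroorotate, which the enzyme Ura1 oxidises to orotate.

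The arrays numbered 1 stood apart from the others. On m-nitrophenol array 1 only 1970 of 5365 named genes had a value, against 5333 and 5343 on m-nitrophenol arrays 2 and 3. The p-nitrophenol arrays held 4369, 5247 and 5252. Across genes, which are not independent replicates, m-nitrophenol array 1 correlated with arrays 2 and 3 of its group at r = 0.59 and 0.61, and these with each other at 0.84. For p-nitrophenol the values were 0.51, 0.58 and 0.86. The p-nitrophenol array 1 correlated more closely with the m-nitrophenol arrays 1, 2 and 3 (0.64, 0.60 and 0.75) than with arrays 2 and 3 of its own group. No pair of scans held identical values (0 of 153 pairs). The comparison was therefore fitted with all arrays and again without the 3 arrays numbered 1, of which o-nitrophenol array 1 is the third. The second fit was thus chosen on measured values. It leaves out a p-nitrophenol array that lay closer to the m-nitrophenol arrays than to its own group. Leaving it out favours a difference between the isomers, so the counts of that fit are descriptions. Since 3133 of the 5096 genes tested have no value on m-nitrophenol array 1, their m-nitrophenol means rest on 2 arrays either way.

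With all arrays, URA1 was the only one of 5096 genes past an adjusted p of 0.05 between the isomers (limma with Benjamini-Hochberg adjustment). No gene was higher in m-nitrophenol (0 of 5096, 0%) and 1 was lower (0.0196%). Unadjusted p-values lay under 0.05 for 364 genes (7.14%), 158 with the higher mean in m-nitrophenol and 206 with the lower. The next lowest adjusted p was 0.372. With the replicate number as a block no gene passed, and 669 had an unadjusted p under 0.05. The comparisons with RNA from before treatment were not fitted with the block. All m-nitrophenol arrays lay above all p-nitrophenol arrays for 616 genes (12.1%) and below them for 673 (13.2%), counting the arrays that had a value. With 2 or 3 arrays per isomer such separation is common even without a difference, so a lack of overlap is given below as a description only. The median difference over all genes was -0.05, on arrays that the authors had each normalised by LOWESS. Around a difference the 95% confidence interval reached, in the median, 1.15 to either side, and the interval lay within -1 to 1, less than a 2-fold difference either way, for 164 genes (3.22%).

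URA1 (YKL216W), the dihydroorotate dehydrogenase of pyrimidine synthesis, was lower after m-nitrophenol and higher after p-nitrophenol than before treatment. Its log2 ratio was -1.64 and -1.26 on m-nitrophenol arrays 2 and 3, with no value on array 1, and 2.69, 3.01 and 2.35 on p-nitrophenol arrays 1, 2 and 3. The groups did not overlap, and p-nitrophenol array 1 lay between the other 2 of its group. The difference was -4.14 ± 0.44 (SE, adjusted p = 0.021, limma), which is 17.6-fold. Against RNA from before treatment URA1 fell under m-nitrophenol, with a mean of -1.45 ± 0.34 (SE, n = 2, adjusted p = 0.0191, limma), and rose under p-nitrophenol, with a mean of 2.69 ± 0.28 (SE, n = 3, adjusted p = 0.000646, limma). In these tests 421 of 5096 genes were higher (8.26%) and 492 lower (9.65%) after m-nitrophenol, and 661 were higher (13%) and 606 lower (11.9%) after p-nitrophenol. URA1 was the only gene past the threshold under both isomers on opposite sides. Its values in the o-nitrophenol arrays were -3.28, -2.31 and -2.92.

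Without the arrays numbered 1 the URA1 difference stayed at -4.14 (adjusted p = 0.00442, limma). The call ended with the replicate number as a block (-4.25, adjusted p = 0.0897) and with only the m- and p-nitrophenol arrays in the fit (adjusted p = 0.0741). It also ended without m-nitrophenol array 2 (adjusted p = 0.677) or 3 (0.343), without p-nitrophenol array 2 (0.153) or 3 (0.103), and without o-nitrophenol array 3 (0.0906), while the difference stayed between -4.33 and -3.95.

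**Figure D1:**
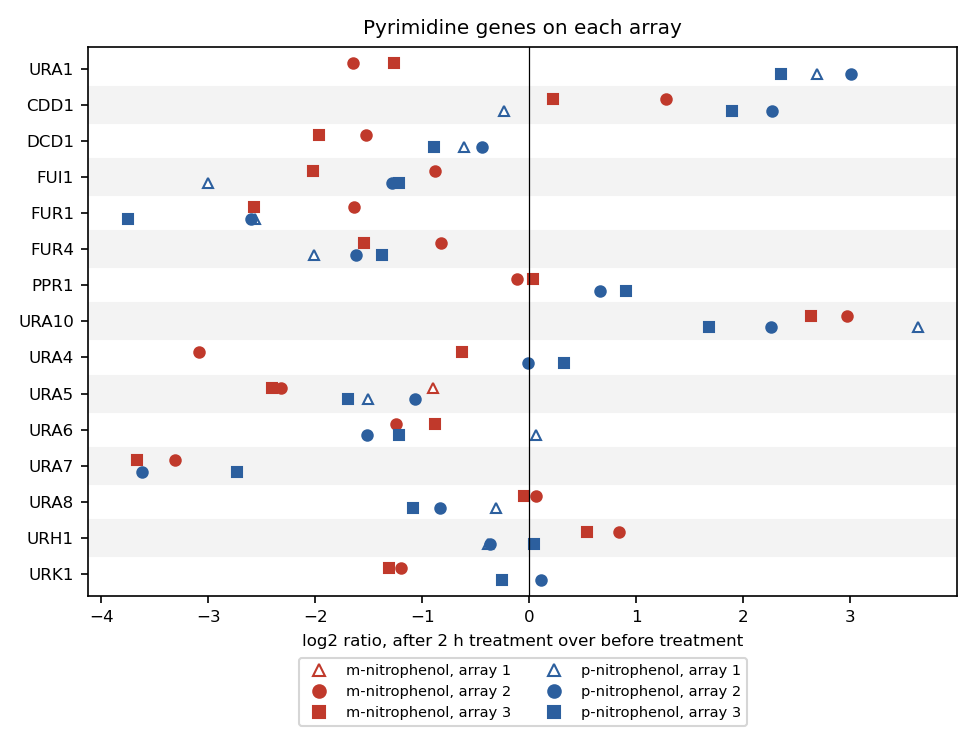
Log2 ratio of each gene of the pyrimidine list on each array, after 2 h of treatment over before treatment, with m-nitrophenol in red above p-nitrophenol in blue and array 1 as an open triangle. URA1, at -1.64 and -1.26 in m-nitrophenol and 2.35 to 3.01 in p-nitrophenol, is the gene whose groups lie farthest apart. No value is drawn where an array has none.

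The other genes of pyrimidine synthesis and salvage did not share the distance of URA1. Of 17 genes on the list 15 were on the array and 14 were tested, and URA1 alone passed, with and without the arrays numbered 1. The median difference of the list was -0.38, beside -0.05 over all genes tested, and -0.57 without the arrays numbered 1, beside -0.04. URA4, the dihydroorotase that acts just before Ura1, had log2 ratios of -3.08 and -0.63 on m-nitrophenol arrays 2 and 3, and -0.01 and 0.32 on p-nitrophenol arrays 2 and 3. These groups did not overlap, and the difference of -2.01 ± 0.74 (SE) had an adjusted p of 0.657 by limma, and of 0.125 without the arrays numbered 1. URA5, the orotate phosphoribosyltransferase that follows, was low on every array with a value. It had -0.90, -2.32 and -2.41 in m-nitrophenol and -1.50, -1.07 and -1.69 in p-nitrophenol, with a difference of -0.45 (95% interval -1.50 to 0.59), and of -0.99 without the arrays numbered 1 (adjusted p = 0.136, limma). DCD1, the dCMP deaminase, had -1.53 and -1.97 against -0.61, -0.44 and -0.89 (adjusted p = 0.658 by limma, and 0.107 without the arrays numbered 1). URA7, the main CTP synthase, had -3.31 and -3.66 on m-nitrophenol arrays 2 and 3 against -3.62 and -2.73 on p-nitrophenol arrays 2 and 3, overlapping groups. PPR1, which codes for the activator of several URA genes, had -0.11 and 0.03 in m-nitrophenol and 0.66 and 0.90 in p-nitrophenol, and its difference was -0.82 (95% interval -1.98 to 0.34), with an adjusted p of 0.24 by limma without the arrays numbered 1.

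The genes next in line were read as values, since none of them passed with all arrays. The 15 standard-named genes of lowest unadjusted p in each direction, among those whose groups did not overlap, had adjusted p-values of 0.372 to 0.605 (limma) apart from URA1. Without the arrays numbered 1, all 15 on the higher side and 13 of the 15 on the lower side passed, with RNT1 not tested and PEX21 at an adjusted p of 0.0697. Arrays 2 and 3 also served to choose these genes, so this is no independent check. SAG1, the alpha-agglutinin with which alpha cells adhere to their mating partners, led the genes higher in m-nitrophenol. It had -0.21, -0.75 and -1.31 on m-nitrophenol arrays 1, 2 and 3 and -4.17, -3.35 and -3.68 on the p-nitrophenol arrays, so that both array sets were below 0 and clearly apart. The difference was 2.98 ± 0.51 (SE, adjusted p = 0.372), and 2.49 without the arrays numbered 1 (adjusted p = 0.0154).

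MF(ALPHA)2, a gene for the alpha mating pheromone, had 0.17, -1.47 and -2.95 in m-nitrophenol and -4.10 and -4.66 on p-nitrophenol arrays 2 and 3 (difference without the arrays numbered 1 of 2.17, adjusted p = 0.0422). STE3, the receptor for a-factor, had 0.08, -1.09 and -1.53 against -0.93, -3.41 and -2.37, with overlap, and did not pass (adjusted p = 0.695, and 0.0668 without the arrays numbered 1). FUS2, a gene of cell fusion in mating, had 1.63 and 1.34 on m-nitrophenol arrays 2 and 3 against 0.11 and -0.57 on p-nitrophenol arrays 2 and 3 (1.72, adjusted p = 0.605, and 0.0296 without the arrays numbered 1). Of 25 tested genes of mating and pheromone response, SAG1, FUS2 and MF(ALPHA)2 passed without the arrays numbered 1, all higher in m-nitrophenol. They are 12% of the list, beside 2.92% over all genes, and a count this small is a description only. The median difference of the list was then 0.17, beside -0.04 over all genes, and 0.21 with all arrays, beside -0.05, where none passed. STE5, the scaffold of the pheromone pathway, lay on the other side at -0.77 (95% interval -1.52 to -0.01).

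The other genes of the 15 higher in m-nitrophenol had varied roles. SSA3, a stress-inducible Hsp70 chaperone, had 2.56 and 3.05 on m-nitrophenol arrays 2 and 3 against -0.26 and 0.06 on p-nitrophenol arrays 2 and 3. SUE1, which acts in the breakdown of unstable cytochrome c, had 2.90 and 3.11 against 0.35 and 0.43. RCK1, a protein kinase of the oxidative stress response, had 4.91 and 4.71 against 1.61 and 0.07. For these 3 genes neither array numbered 1 had a value, so the same 4 arrays stand behind both fits, and the differences were 2.90, 2.61 and 3.97. Their adjusted p-values by limma were 0.499, 0.499 and 0.605 with all arrays and 0.00491, 0.00531 and 0.00531 without the arrays numbered 1. The estimate of spread was smaller there, with a median half-width of the interval over all genes of 0.83 rather than 1.15. STL1, a glycerol symporter, was above 0 in m-nitrophenol (1.20 and 1.33) and below it in p-nitrophenol (-0.59 and -0.98). TDH1, a glyceraldehyde-3-phosphate dehydrogenase, had 3.31, 2.45 and 1.98 in m-nitrophenol and 1.49, 0.61 and -0.24 in p-nitrophenol, without overlap. PDC6, the minor pyruvate decarboxylase, had 1.91 and 2.50 against -0.56, 0.52 and -1.25.

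PHO89, a sodium and phosphate cotransporter, had -0.12 and 0.20 on m-nitrophenol arrays 2 and 3 against -2.98 and -2.31 on p-nitrophenol arrays 2 and 3. GIT1, a permease for glycerophosphoinositol, had 2.20 and 2.54 against 0.44, 0.06 and 0.75. PIR1, a glycosylated protein of the cell wall, had -0.06, -0.34 and -0.25 against -1.02, -2.06 and -2.12. PSA1, which makes GDP-mannose for glycosylation, had 0.09, 0.62 and -0.08 against -1.31, -1.58 and -1.76. In PIR1 and PSA1 all 6 arrays had a value and the m-nitrophenol arrays lay near 0 and the p-nitrophenol arrays below it. MCD4 of GPI anchor synthesis had 1.40 and 1.21 against -1.43, -0.65 and -0.21. PET9, the main mitochondrial ADP/ATP carrier, HMS1, a helix-loop-helix protein, and ALF1, a tubulin folding factor, had differences of 2.03, 1.79 and 1.57.

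On the side lower in m-nitrophenol, after URA1, CAF16, an ATPase linked to the Ccr4-Not complex, had a value on all 6 arrays, with -0.53, -0.91 and -0.10 in m-nitrophenol and 0.92, 1.48 and 1.71 in p-nitrophenol. HIS7, of histidine synthesis, had -1.07 and -0.62 against 1.36 and 1.52. ARG2, of arginine synthesis, had -2.56 and -0.52 against 0.53, 1.34 and 1.57. Each of these lay below 0 after m-nitrophenol and above it after p-nitrophenol. RPA49, a subunit of RNA polymerase I, had -5.35 and -4.15 against -2.21 and -2.64. NMD3, the export adaptor of the large ribosomal subunit, had -5.63 and -3.90 against -3.14, -1.40 and -0.73. RPS24A, a ribosomal protein gene, had -5.0 and -3.92 against -2.36, -1.88 and -2.08. These last genes were below 0 under both isomers and lower in m-nitrophenol.

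The others of the 15 were of mixed function. EEB1, which makes ethyl esters of fatty acids, had -1.19, -1.89 and -2.33 in m-nitrophenol and 0.18, -0.24 and 1.57 in p-nitrophenol. RIB4, of riboflavin synthesis, had 0.46, 0.77 and 0.22 against 4.25, 2.04 and 1.75. PEX21, of peroxisomal import, had 0.34, 0.81 and 1.04 against 2.10, 2.37 and 1.93. RIB4 and PEX21 were thus above 0 under both isomers and higher in p-nitrophenol. RRB1, of ribosome assembly, had a difference of -1.99, and the nuclear ribonuclease III gene RNT1 one of -2.30. JJJ3, of diphthamide synthesis, NFU1, of iron-sulfur cluster transfer, and TRM1, a tRNA methyltransferase, had differences of -2.02, -1.77 and -1.75.

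**Figure D2:**
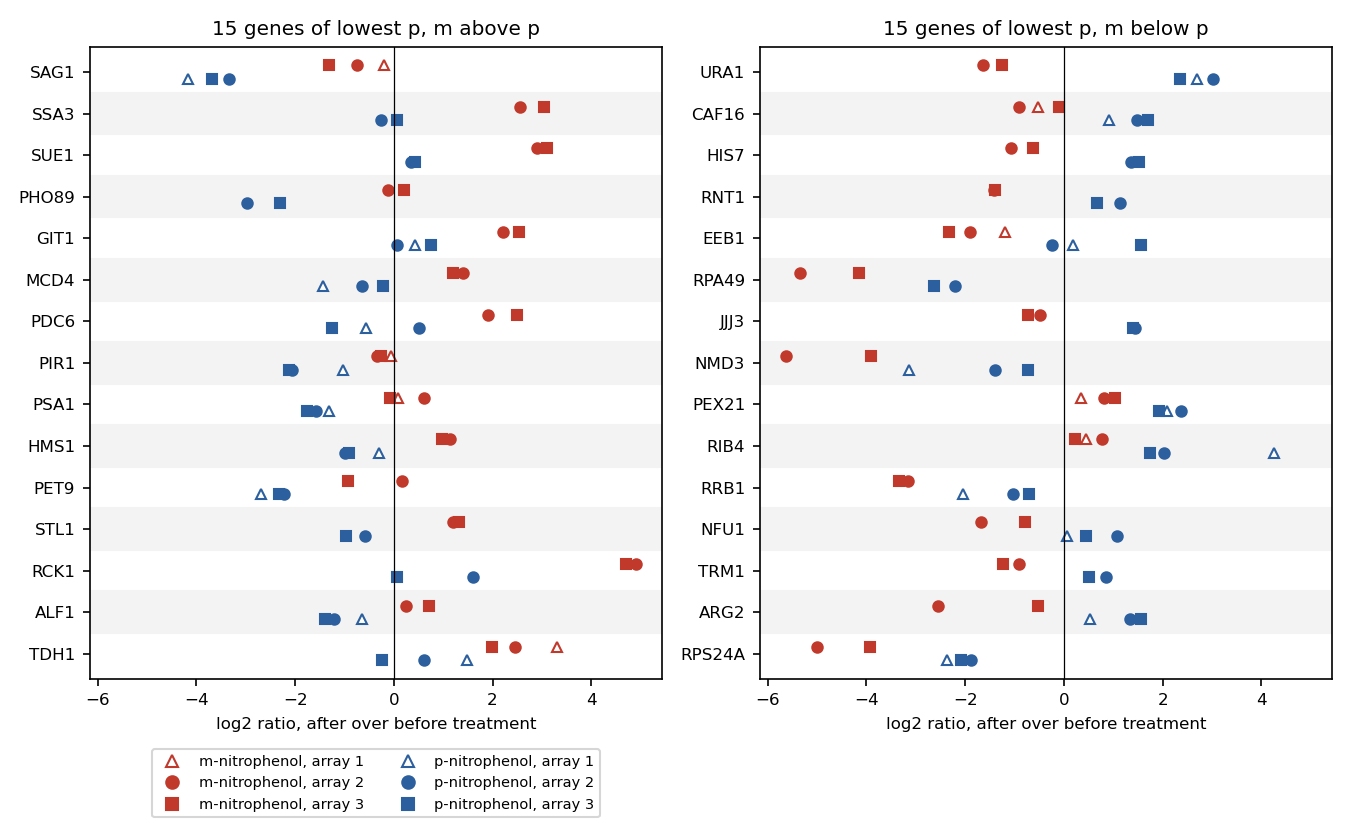
Log2 ratio on each array, after over before treatment, of the 15 genes of lowest unadjusted p in each direction whose groups do not overlap, m-nitrophenol in red above p-nitrophenol in blue. URA1 passes the threshold with an adjusted p of 0.021, and the others have 0.372 to 0.605. An array without a value has no point.

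Without the arrays numbered 1 the picture was wider. Of 4962 genes tested on arrays 2 and 3 of each group, 145 were higher in m-nitrophenol (2.92%) and 146 lower (2.94%) at an adjusted p of 0.05 (limma). These 291 had the same sign in the fit of all arrays, where 59 of the 145 and 66 of the 146 had an unadjusted p under 0.05. That fit holds the same arrays 2 and 3 that chose the genes. Of the 145, 57 have no value on m-nitrophenol array 1, and of the 146, 80 have none. The shared sign is thus no independent check. URA1 apart, their adjusted p with all arrays was at least 0.372. The median difference of the 145 was 1.96 without the arrays numbered 1 and 1.31 with them, and that of the 146 was -1.92 and -1.34. The differences of the 145 ran from 1.32 to 5.49, and those of the 146 from -4.14 to -1.31. Of the 145, 88 had means above 0 in m-nitrophenol and below 0 in p-nitrophenol, 28 were above 0 and 29 below 0 in both. Of the 146, 54 were below 0 in m-nitrophenol and above 0 in p-nitrophenol, 64 below 0 and 28 above 0 in both. The median half-width of the interval was 0.83, and 918 genes (18.5%) had an interval within -1 to 1. The counts rest on 2 arrays per isomer, and they were 178 with the o-nitrophenol arrays left out and 385 with the replicate number as a block.

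The arrays numbered 1 did not repeat these differences. Of the 145 genes 85 were measured on both m- and p-nitrophenol array 1, and the m-nitrophenol value was the higher in 33 (38.8%), with a median difference between these arrays of -0.39. Over all 1884 genes with both values the share was 36.9% and the median -0.39. Of the 146 genes 65 were measured on both, and the m-nitrophenol value was the lower in 21 (32.3%), with a median of 0.68. Over all 1884 genes it was the lower in 63.1%. The other 60 and 81 genes lack a value on at least 1 of these arrays. For the 145 genes the share was close to that over all genes. The 65 lower genes mostly ran the other way on the arrays numbered 1, with the m-nitrophenol value the higher in 44 (67.7%), beside 36.9% over all genes. What sets the arrays numbered 1 apart was not tested.

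**Figure D3:**
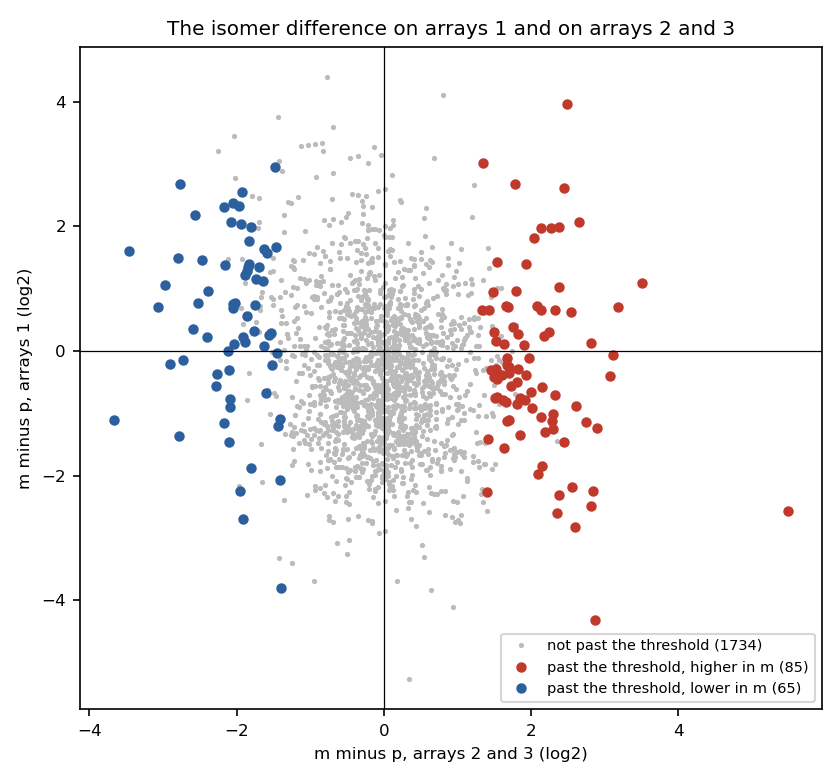
Difference m minus p on the log2 scale for each gene measured on both arrays numbered 1, with the difference on arrays 2 and 3 on the horizontal axis and that on arrays 1 on the vertical axis. Red points are the 85 genes past the threshold and higher in m-nitrophenol on arrays 2 and 3, blue points the 65 lower ones, and grey points all others. Of the red points 33 lie above 0 on the vertical axis, and of the blue points 21 lie below it.

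HSP26 and URA1 had the largest differences on arrays 2 and 3. HSP26, a small heat shock protein, had 3.36, 4.70 and 4.23 on m-nitrophenol arrays 1, 2 and 3 and 5.93, -0.92 and -1.13 on the p-nitrophenol arrays. It was thus high on all m-nitrophenol arrays and on p-nitrophenol array 1, and below 0 on p-nitrophenol arrays 2 and 3. The difference was 5.49 (95% interval 4.75 to 6.24, adjusted p = 0.000341, limma) without the arrays numbered 1, and 2.80 (95% interval -0.80 to 6.41, adjusted p = 0.754) with them. HMX1, the heme oxygenase, had 4.28 and 4.01 against 5.28, 0.01 and 0.85. HXK1, a hexokinase, had 2.91, 1.98 and 1.28 against 1.81, -1.84 and -1.91. ERG28, a scaffold of ergosterol synthesis, had 1.95, 1.11 and 0.92 against 2.01, -1.81 and -2.37. In HMX1 and ERG28, as in HSP26, p-nitrophenol array 1 lay above every m-nitrophenol array, and in HXK1 it lay among them.

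On 27 of 4962 genes tested both treatments passed against RNA from before treatment with opposite signs on arrays 2 and 3. All of them but ENO2 also passed between the isomers there (ENO2 difference of 1.60, adjusted p = 0.0501, limma). HSP26, HXK1, ERG28, MTH1, GPM2, GRE3, YPS1, STL1 and HMS1 were among the 20 that rose under m-nitrophenol and fell under p-nitrophenol. The 7 with the reverse pattern were URA1, ARG2, HIS1, SAM4, HIS7, NOP16 and LYS2, of which ARG2, HIS1, HIS7 and LYS2 act in amino acid synthesis. These genes were chosen after their values were seen.

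**Figure D4:**
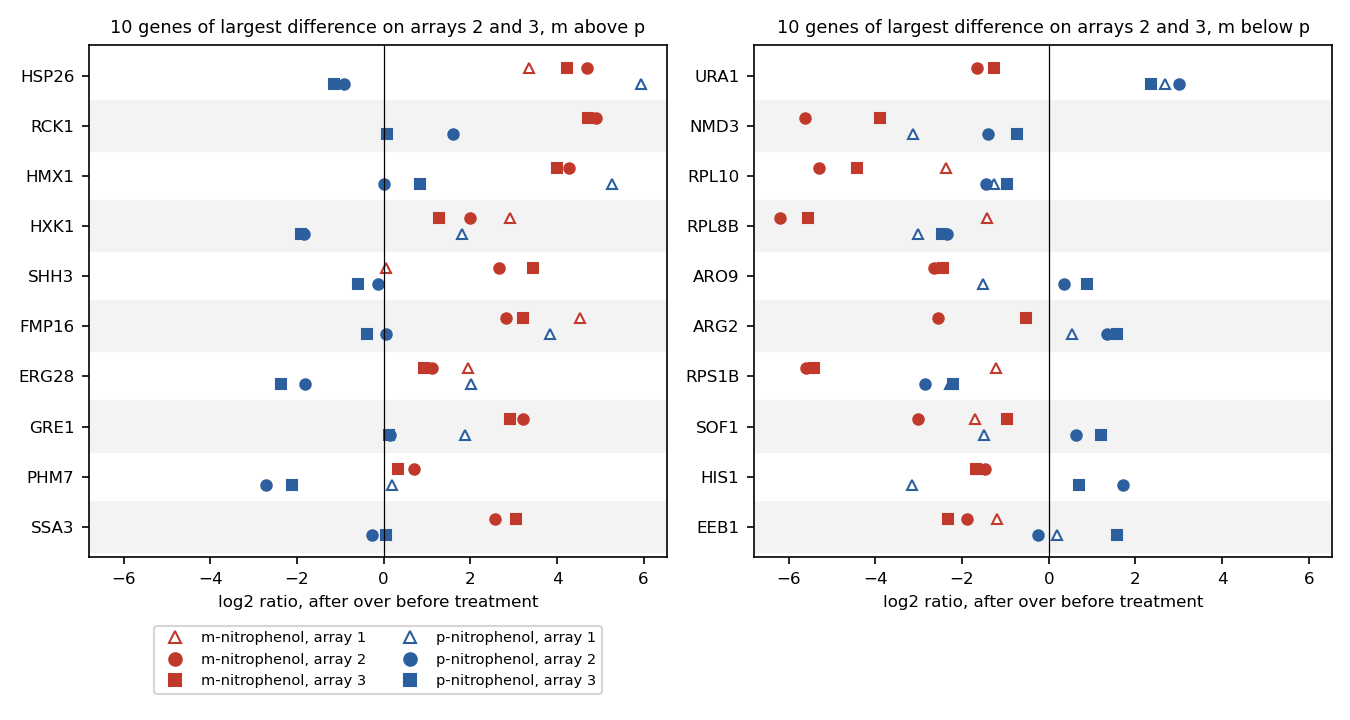
Log2 ratio on each array, after over before treatment, of the 10 named genes of largest difference in each direction among those past the threshold on arrays 2 and 3, m-nitrophenol in red above p-nitrophenol in blue, array 1 as an open triangle. In HSP26 the m-nitrophenol arrays lie at 3.36 to 4.70 and p-nitrophenol arrays 2 and 3 at -0.92 and -1.13, while p-nitrophenol array 1 lies at 5.93.

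The gene lists are read on arrays 2 and 3, against the shares of 2.92% higher and 2.94% lower over all genes. The arrays numbered 1 were left out after their values were seen. The list counts therefore describe arrays 2 and 3 and are no independent support for a difference between the isomers. They also moved over 6 variations of this fit, some of which tested fewer genes. The higher genes numbered 14 to 20 for general stress, 3 to 9 for cell wall, 3 to 9 for glycolysis and fermentation, and 3 to 7 for hexose transport. The lower genes of ribosome biogenesis numbered 3 to 18. With all arrays no member of any list passed except URA1. In the general stress response 40.5% of genes were higher in m-nitrophenol on arrays 2 and 3. Of 42 genes tested 17 passed and none was lower, and the median difference was 1.36, beside -0.04 over all genes. Lists can share members, and HSP12, GPH1, PGM2 and NQM1 also count in other lists. With all arrays none passed and the median was 0.67, beside -0.05. The median of the list was 1.71, 1.37 and 1.23 on m-nitrophenol arrays 1, 2 and 3, and 2.57, -0.26 and 0.08 on the p-nitrophenol arrays. The m-nitrophenol medians were thus alike, and that of p-nitrophenol array 1 lay above all of them while those of arrays 2 and 3 lay near 0. The medians do not cover the same genes, since only 28 of the 42 had a value on m-nitrophenol array 1 and 40 on p-nitrophenol array 1. NQM1, a transaldolase-like protein, had 7.12, 4.09 and 3.54 against 4.50, 1.44 and 1.30, the m-nitrophenol value being higher at each array number. Its difference was 2.50 with all arrays (95% interval -0.41 to 5.41, adjusted p = 0.73) and 2.44 without the arrays numbered 1 (adjusted p = 0.00823). GRE1, a hydrophilin, had 3.22 and 2.93 against 1.87, 0.14 and 0.12. CTT1, the cytosolic catalase, had 1.92, -0.94 and -1.07 against -0.75, -2.82 and -2.75, again with the m-nitrophenol value higher at each number.

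Of 34 heat shock genes HSP26, SSA3 and HSP12 were higher in m-nitrophenol on arrays 2 and 3 and none was lower. HSP12, a membrane-stabilising stress protein, had 2.61, 3.63 and 3.99 in m-nitrophenol and 4.45, 1.50 and 1.82 in p-nitrophenol. Both isomers stood above 0 on every array, and the difference was 0.82 with all arrays (95% interval -1.04 to 2.68) and 2.15 without the arrays numbered 1 (adjusted p = 0.0164). The 3 genes are 8.82% of the list, beside 2.92% over all genes. The median of the list was 0.12 on arrays 2 and 3, and 0.07 with all arrays.

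Genes of sugar uptake and storage stood on the same side. Of 36 tested genes of glycolysis and fermentation 7 passed without the arrays numbered 1, and all 7 were higher in m-nitrophenol, 19.4% of the list beside 2.92% over all genes (HXK1, GPM2, GLK1, TDH1, PDC6, PCK1 and TDH3). The median difference was 0.84, and 0.53 with all arrays. TDH3, the main glyceraldehyde-3-phosphate dehydrogenase, had 0.50, 1.18 and 0.77 against -0.16, -0.23 and -0.68, and these groups did not overlap. Of 22 genes of hexose transport 5 were higher (MTH1, HXT2, HXT7, HXT6 and MIG1), which is 22.7% beside 2.92% over all genes. The list median was 0.89, and 0.70 with all arrays, where 0 of 23 passed. HXT2, a high-affinity glucose transporter, had 1.22, 0.73 and 0.47 against -0.77, -2.01 and -1.57, without overlap on any array. HXT6 and HXT7 are near-identical genes whose probes may share signal, so they may not be separate measurements. Of 25 genes of trehalose and glycogen 6 were higher (GPH1, GSY1, GAC1, GLC3, GIP2 and PGM2), which is 24% beside 2.92% over all genes. The list median was 0.80, and 0.35 with all arrays. GPH1, the glycogen phosphorylase, had 2.69, 0.51 and 0.28 against 2.04, -1.77 and -2.09.

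Phosphate and cell wall lists also had members higher in m-nitrophenol and none lower. Of 25 phosphate genes PHO89, PHO84, GIT1 and SPL2 passed on arrays 2 and 3, which is 16% beside 2.92% over all genes. The list median was 0.61, and 0.35 with all arrays. PHO84, the high-affinity phosphate transporter, had -1.26, -1.02 and -0.61 against -1.39, -3.95 and -3.31, so it was below 0 on every array and lowest on p-nitrophenol arrays 2 and 3. Of 51 cell wall genes 8 passed, or 15.7% (PIR1, SCW11, YPS1, CTS1, EGT2, DSE1, SUN4 and SCW10), with a median difference of 0.71, and 0.56 with all arrays. CTS1, DSE1, EGT2 and SCW11 are known as daughter-cell genes that part mother and bud. SCW11 had 0.36, -0.12 and -0.48 in m-nitrophenol and -1.61, -2.72 and -2.40 in p-nitrophenol, without overlap. CTS1, the chitinase of cell separation, had 0.56, 0.51 and -0.33 against -0.14, -1.70 and -1.50. ASH1, a daughter-cell repressor, had 1.58, 0.54 and 0.36 against -0.49, -2.14 and -2.27, also without overlap. Its difference was 2.65 on arrays 2 and 3 (adjusted p = 0.00823, limma) and 2.46 with all arrays (adjusted p = 0.657). ASH1 comes from another list, that of G1, S and mitotic cell cycle, which as a whole lay near all genes. Of its 45 genes 2 were higher on arrays 2 and 3 (4.44%, beside 2.92% over all genes). The median of that list was 0.14 there and -0.04 with all arrays.

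Ribosomal protein genes were the largest group lower in m-nitrophenol on arrays 2 and 3. Of 119 cytosolic ribosomal protein genes 36 passed, all lower, which is 30.3% beside 2.94% over all genes, with a median difference of -1.41, beside -0.04 over all genes. With all arrays none of 123 passed and the median was -0.55. The list median was -1.35, -3.11 and -4.27 on m-nitrophenol arrays 1, 2 and 3, and -2.75, -1.92 and -2.42 on the p-nitrophenol arrays, so every array was below 0 and m-nitrophenol array 1 was the least so. The median of m-nitrophenol array 1 covers 102 of the 123 genes. RPL10 had -2.37, -5.30 and -4.42 in m-nitrophenol and -1.26, -1.44 and -0.96 in p-nitrophenol, without overlap. RPL8B had -1.43, -6.19 and -5.55 against -3.03, -2.35 and -2.46. RPS1B had -1.21, -5.61 and -5.40 against -2.27, -2.85 and -2.22. In RPL8B and RPS1B m-nitrophenol array 1 lay above all p-nitrophenol arrays. Many ribosomal proteins have paired, nearly identical genes (RPS11A and RPS11B, RPL8A and RPL8B), and signal shared within such pairs cannot be told apart here. The count of 36 was 16 to 56 over 6 variations of the fit without the arrays numbered 1. RPL4A was low under both isomers, with -4.68, -5.52 and -4.70 against -4.56, -4.24 and -4.0 (difference of -0.70, 95% interval -1.57 to 0.17, and of -0.99, adjusted p = 0.191, without the arrays numbered 1).

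The genes that assemble ribosomes followed the same direction. Of 52 genes of ribosome biogenesis 14 were lower in m-nitrophenol and none higher on arrays 2 and 3 (26.9%, beside 2.94% over all genes). The list median was -1.10, and -0.58 with all arrays. NOP56, a core protein of box C/D snoRNPs, had -2.09, -3.53 and -3.82 against -4.08, -1.85 and -1.90. CBF5, the pseudouridine synthase of box H/ACA snoRNPs, had -1.86, -2.39 and -2.86 against -3.93, -0.68 and -0.41. Here p-nitrophenol array 1 was the lowest of all 6 arrays. SOF1, of the small subunit, had -1.70, -3.01 and -0.96 against -1.49, 0.63 and 1.22. Of 31 genes of RNA polymerases I and III, RPA49 and RPA34 were lower (6.45%, beside 2.94% over all genes). The list median was -0.55, and -0.46 with all arrays. None of 40 translation factor genes passed, and their median was -0.31, and -0.06 with all arrays. The 66 mitochondrial ribosomal protein genes also had none past the threshold, with a median of 0.29, and of 0.05 with all arrays.

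Amino acid synthesis formed the other group lower in m-nitrophenol. Of 45 Gcn4-controlled genes 8 passed on arrays 2 and 3, all lower (CPA1, HIS1, HIS7, ARG4, LYS2, ARG2, HIS5 and ILV3), which is 17.8% beside 2.94% over all genes, with a median of -0.73, and -0.50 with all arrays. The list median was -0.35, -0.68 and -0.84 on the m-nitrophenol arrays and -0.92, 0.05 and 0.06 on the p-nitrophenol arrays. Again p-nitrophenol arrays 2 and 3 lay close together and array 1 was the lowest of the 6. These medians do not cover the same genes, since of 47 genes tested with all arrays 16 had a value on m-nitrophenol array 1 and 40 on p-nitrophenol array 1. CPA1, of carbamoyl phosphate synthesis for arginine, had 0.00, 1.18 and 1.44 in m-nitrophenol and -0.35, 3.89 and 3.92 in p-nitrophenol. ARG4, the argininosuccinate lyase, had 1.80 and 1.83 against -0.37, 4.07 and 4.11. HIS1, the first enzyme of histidine synthesis, had -1.66, -1.48 and -1.69 against -3.16, 1.72 and 0.70.

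Of 19 genes of aromatic amino acids 6 were lower on arrays 2 and 3 (ARO9, ARO3, ARO10, TRP3, TRP2 and ARO8), which is 31.6% beside 2.94% over all genes. The list median was -0.85, and -0.33 with all arrays, where 0 of 19 passed. ARO9 and ARO10, which break down aromatic amino acids to fusel alcohols, lay side by side. ARO9 had -2.64 and -2.44 on m-nitrophenol arrays 2 and 3 and -1.53, 0.35 and 0.88 on the p-nitrophenol arrays. ARO10 had -2.50 and -2.43 against -1.85, -0.14 and 0.31. Both were lowest in m-nitrophenol on every array compared, with differences of -3.16 and -2.55 on arrays 2 and 3 (adjusted p = 0.00442 and 0.0061, limma) and -2.45 and -1.91 with all arrays (adjusted p = 0.609 and 0.657). ARO3, the DAHP synthase that starts aromatic synthesis, had 0.59, 0.05 and 0.09 against -2.09, 2.68 and 2.99. Of 37 genes of sulfur amino acids 7 were lower on arrays 2 and 3 (SAM4, MET16, MET5, HOM3, STR2, MET22 and GSH1), which is 18.9% beside 2.94% over all genes. The list median was -0.77, and -0.33 with all arrays, where 0 of 38 passed. Of 19 aminoacyl-tRNA synthetases 4 were lower (KRS1, DED81, ILS1 and WRS1), which is 21.1% beside 2.94% over all genes. The list median was -0.51, and -0.44 with all arrays. MET16, of sulfate reduction, had 0.86 and 0.76 against 0.21, 3.37 and 3.51. DED81, the asparaginyl-tRNA synthetase, had -4.12 and -4.43 against -3.41, -2.21 and -2.29.

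**Figure D5:**
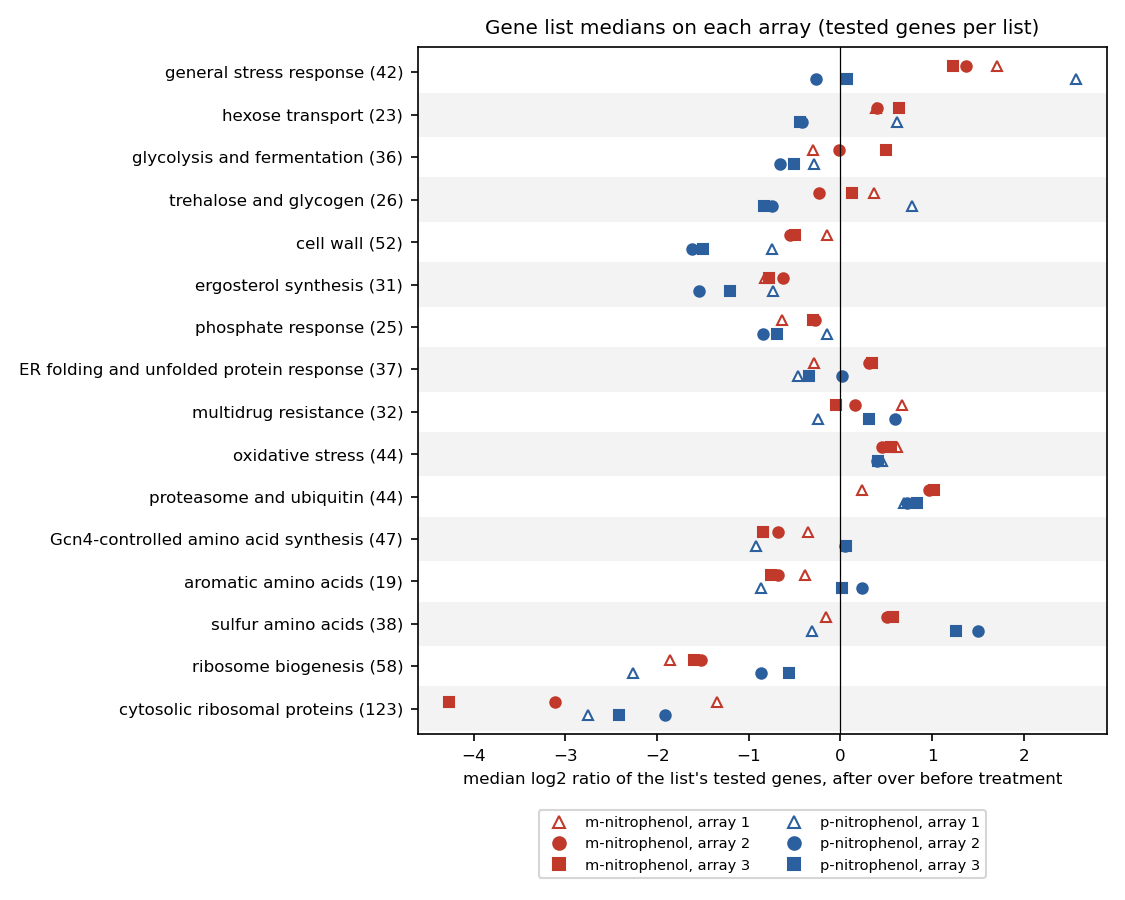
Median log2 ratio of 16 gene lists on each array, after over before treatment, m-nitrophenol in red above p-nitrophenol in blue, with the number of tested genes in brackets. A median covers only the genes with a value on that array, which are fewer on m-nitrophenol array 1. The general stress list has 1.23 to 1.71 on the m-nitrophenol arrays and 2.57, -0.26 and 0.08 on p-nitrophenol arrays 1, 2 and 3. In the ribosomal protein list the lowest medians, -4.27 and -3.11, are those of m-nitrophenol arrays 3 and 2.

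The pump gene PDR5 and the detoxification gene GRE2 rose under both isomers and did not pass between them in either fit. PDR5, the main multidrug efflux pump, had 3.77, 3.10 and 3.67 in m-nitrophenol and 3.20, 3.78 and 3.95 in p-nitrophenol. Its arrays overlapped, and the difference of -0.13 had a 95% interval of -1.39 to 1.14, so a difference of up to about that size either way remains possible. Without the arrays numbered 1 it was -0.47 (95% interval -1.24 to 0.29). GRE2, a methylglyoxal reductase, had 4.17, 5.23 and 4.41 against 2.64, 6.44 and 4.81 (difference of -0.03, 95% interval -2.86 to 2.81, and of -0.80, 95% interval -2.02 to 0.41, without the arrays numbered 1). SNQ2, another efflux pump, had 0.84, 1.80 and 2.24 against -1.55, 3.48 and 3.17. CIS1, of drug resistance, had 1.25, 4.45 and 3.12 against 4.93, 5.36 and 4.09. Without the arrays numbered 1, the differences of SNQ2 and CIS1 were -1.30 (95% interval -2.39 to -0.21, adjusted p = 0.157) and -0.94 (95% interval -2.33 to 0.44, adjusted p = 0.4).

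Of 32 multidrug resistance genes 1 was higher (3.12%, near the 2.92% over all genes) and 3 were lower (9.38%, beside 2.94%) on arrays 2 and 3. The list median was -0.25, and -0.05 with all arrays. TPO4, a polyamine exporter, had -2.05, -2.37 and -2.02 against -2.73, -0.39 and 0.11. ATR1, a multidrug exporter, had 0.37, -0.46 and -0.09 against 0.37, 1.46 and 2.24, and PDR16, a lipid transfer protein of the same network, had 1.04, 0.12 and 2.09 against 1.19, 3.81 and 3.84. These were lower in m-nitrophenol, while QDR2 was higher, with -0.91, 0.01 and -0.36 against -0.24, -2.75 and -1.58. In the oxidative stress list CTT1 was higher and GSH1 lower of 43 genes, 2.33% each way, which is near the 2.92% and 2.94% over all genes. Among 17 genes of nitro-compound and NADPH reductases, only the aldose reductase GRE3 passed on arrays 2 and 3, higher in m-nitrophenol (5.88%, beside 2.92% over all genes). It had 1.60, 1.48 and 1.06 in m-nitrophenol and 1.29, -0.50 and -1.44 in p-nitrophenol. The list median lay on the other side, at -0.40 on arrays 2 and 3 and -0.22 with all arrays. OYE3, a flavin enzyme that can reduce nitro groups, had -0.28 and 0.19 against 2.09, 1.20 and 0.56, and did not pass (difference of -1.33, adjusted p = 0.678 with all arrays, and -0.93, adjusted p = 0.219, without the arrays numbered 1).

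Several strongly responding genes did not pass between the isomers in either fit. SNZ1, of vitamin B6 synthesis, had 3.95, 2.36 and 3.88 in m-nitrophenol and 2.60, 4.66 and 4.03 in p-nitrophenol, a difference of -0.37 with a 95% interval of -1.67 to 0.93. ATG8, the ubiquitin-like protein of autophagosomes, had 3.82, 2.75 and 2.79 against 3.04, 3.11 and 2.25 (difference of 0.32, 95% interval -1.33 to 1.97). GUA1, the GMP synthase, had -4.66 and -5.99 against -5.56, -4.14 and -4.34 (-0.65, 95% interval -1.89 to 0.60). SRL1, a cell wall mannoprotein, had -5.07 and -5.17 against -5.53, -5.85 and -5.64 (0.56, 95% interval -0.35 to 1.46). ELO3, of very long chain fatty acids, had -5.05 and -5.97 against -5.93 and -3.80 (-0.64, 95% interval -2.26 to 0.98). All 5 genes moved far from 0 on the arrays of both isomers, and their intervals leave room for a 2-fold difference in at least 1 direction. Without the arrays numbered 1 the differences of SNZ1, ATG8, GUA1, SRL1 and ELO3 were -1.23, 0.09, -1.09, 0.63 and -0.64, with adjusted p-values of 0.197 to 0.949 (limma). INO1, of inositol synthesis, had 3.31 and 6.11 in m-nitrophenol against 0.08, 2.56 and 1.99 in p-nitrophenol, groups that did not overlap. Its difference was 3.17 with all arrays (adjusted p = 0.605) and 2.43 without the arrays numbered 1 (adjusted p = 0.106).

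The remaining lists held few genes past the threshold on arrays 2 and 3. No member of the histone, DNA damage, and beta-oxidation and peroxisome lists passed, of 11, 27 and 30 tested, and with 2.92% and 2.94% of all genes called, lists of this size show little either way. Of 43 proteasome and ubiquitin genes BLM10 was higher (2.33%, near the share over all genes). The list median was 0.97 and 1.03 on m-nitrophenol arrays 2 and 3 and 0.72 and 0.84 on p-nitrophenol arrays 2 and 3. Of 30 ergosterol genes ERG28 and ERG20 were higher (6.67%, beside 2.92% over all genes), and the list median difference was 0.69, beside 0.28 with all arrays. ERG11, the lanosterol demethylase, had -1.26, -0.39 and -1.67 against -3.92, -2.61 and -1.90, and did not pass (1.71, adjusted p = 0.605 with all arrays and 0.169 without the arrays numbered 1). Among 37 genes of endoplasmic reticulum folding SIL1, a nucleotide exchange factor, was higher (2.7%, near the share over all genes). It had 0.38, 2.42 and 2.55 against 0.10, 0.75 and 0.57. Of 30 iron genes HMX1, FIT2 and FRE7 were higher (10%, beside 2.92% over all genes) and CTH1 lower (3.33%, beside 2.94%). Probes with no gene symbol, 1399 on the array, added 0 calls among 418 tested with all arrays. Without the arrays numbered 1 they added 10 among 412 (2.43%), 6 higher and 4 lower. Over all named genes 2.92% were higher and 2.94% lower in that fit.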

How the data were processed

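The values are log2 ratios of the 2 channels of each scan, deposited by the authors as a value table. Per the labels, spots with flag value 0 were used and normalised by LOWESS. The base follows from 13 values at exactly the log2 of 0.01. Background correction and the rule for missing values are not given in the sources used here. Both scans of an array were averaged, probes of 1 gene (99 genes) likewise, and symbols came from the platform annotation, updated through RefSeq R64 (5360 of 5365 genes matched).

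Differences were fitted with limma 3.58.1 (R 4.3.3, statmod 1.5.0) on group means of all 9 arrays, for genes with at least 2 values in each group, with Benjamini-Hochberg adjustment over all genes and a threshold of 0.05. The code was tested on simulated data. Intervals are at 95% for each gene alone. The depth of an array is unknown.

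Replicate numbers come from the labels. Deviations of same-numbered m- and p-nitrophenol arrays correlated at 0.12, 0.25 and 0.11 over 1888 genes, which counts as pairing here (each above 0.1). The main fit has no block and so leaves this pairing out, and values with the block are given where they change a call. With the block 0 genes passed, and URA1 had an adjusted p of 0.0897 (limma). The call of URA1 thus holds only for the fit without pairing.

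Named with values were up to 15 genes in each direction that passed, filled by lowest unadjusted p, without overlap of groups and with a standard name. Up to 4 genes of each list with the lowest p, a fixed set of strongly responding genes and genes past the threshold with opposite signs could be added. Genes singled out from arrays 2 and 3 alone were chosen after their values were seen. The groups compared and the 42 lists were chosen with earlier results of these data known. Alternatives varied scans, normalisation, filters, weights and arrays.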

Additional observations from a re-analysis of the deposited data

Results flagged for a closer look

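URA1 was the only gene whose m-minus-p difference passed the threshold with all arrays and whose effects ran in opposite directions, at -4.14 on the log2 scale. The 2 m-nitrophenol arrays with a value lay below 0 and the 3 p-nitrophenol arrays above it. The difference itself was tested in the fit without pairing (adjusted p = 0.021, limma). In the fit with the replicate number as a block it did not pass (adjusted p = 0.0897, limma). The doses of the isomers differed, so isomer and dose cannot be told apart.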

How the results depend on the processing

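The number of genes past the threshold was 1 with all arrays. It was 2 with low-power scans alone (HSP26 and SAG1), 2 with all scans and the array as a random block, and 2 after quantile normalisation. It was 0 with only the m- and p-nitrophenol arrays, 0 for genes with values on all 3 arrays (fewer genes), and 0 with the replicate number as a block. Array weights gave 233, and leaving out the 3 arrays numbered 1 gave 291. Without those arrays, alternatives chosen after seeing the data gave 242 (high-power scans), 202 (low-power scans), 278 (centred arrays), 348 (quantile), 178 (only m- and p-nitrophenol arrays) and 385 (replicate block). Genes on opposite sides of 0 under the isomers, 1 with all arrays, numbered 3 (low-power scans), 4 (quantile), 0 (values on all 3 arrays), 21 (weights) and 27 (without the arrays numbered 1), and in the same order of added alternatives 22, 23, 28, 40 and 27, with no count under the block. Intervals within a 2-fold difference, 164 with all arrays, numbered 262 (only m- and p-nitrophenol arrays), 38 (values on all 3 arrays), 1226 (weights), 384 (replicate block) and 918 (without the arrays numbered 1), and under the added alternatives 916, 565, 896, 848, 906 and 1303. Lists with at least 1 member past the threshold, 1 with all arrays, numbered 2 (low-power scans), 2 (random block), 0 (only m- and p-nitrophenol arrays), 0 (values on all 3 arrays), 39 (weights), 0 (replicate block) and 37 (without the arrays numbered 1), and under the added alternatives 37, 35, 37, 38, 35 and 40.

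URA1 kept its direction wherever it had a value. Its difference was -4.139 with only the m- and p-nitrophenol arrays (adjusted p = 0.0741, limma) and -4.25 with the replicate block (adjusted p = 0.0897), and the call was lost in both. Leaving out 1 array at a time gave differences of -4.33 to -3.95 (adjusted p = 0.0175 to 0.677), 0 to 4 genes past the threshold, 0 to 4 on opposite sides, 9 to 428 intervals within 2-fold and 0 to 2 lists. The 4 genes came without p-nitrophenol array 1 and were ERG28, URA1, YGR201C and YLR152C. URA1 had no value in the fits of low-power scans and of genes on all 3 arrays. Of 1260 list medians under alternatives 1146 kept their sign, and of 1218 values of named genes 1192 did. Beyond fewer genes or arrays, the cause of these changes was not tested. What limits all of this is 3 arrays per isomer, of which the arrays numbered 1 stand apart, and unequal doses.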

Other observations

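Some smaller groups held genes past the threshold on arrays 2 and 3 alone, chosen here after their values were seen. Over all genes 2.92% were higher and 2.94% lower there, and with all arrays no member of these lists passed, so a count of 1 to 3 in a short list is a description only. The aldehyde dehydrogenases ALD2 and ALD3 were higher in m-nitrophenol (14.3%) and the aryl-alcohol dehydrogenase AAD4 was lower (7.14%), out of 14 genes of that list. ALD3 had a difference of 1.53 (adjusted p = 0.0349, limma) and AAD4 one of -1.74 (adjusted p = 0.0215). SPS100, RIM4 and SPO73, 10% of 30 genes of meiosis and sporulation, were higher in m-nitrophenol without the arrays numbered 1, and TKL2, the minor transketolase, was higher with NQM1 among 14 genes of the pentose phosphate pathway (14.3%). ADE17 and SHM2, which serve purine and one-carbon metabolism, were the 2 higher genes of 26 in purine and GMP synthesis (7.69%). AFB1, which codes for the a-factor barrier of alpha cells, was higher as well, with a difference of 2.13 (adjusted p = 0.0151).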
